A study of Daphnia magna with 22 samples.

Results

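Predicted gene models that carry no protein accession, and that were expressed, were examined in whole-body RNA sequencing of the water flea Daphnia magna. Members were chosen by their ID, which does not begin with the KZ prefix of a protein accession, and by their measured level: CPM, a row's count divided by the library's column total and multiplied by 1000000, had to average at least 1 over all 22 libraries. There were 296 of them among 1289 rows without an accession and 14657 rows in all. Another 3864 rows with a KZ accession reached the same level and serve as the comparison.

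The 22 libraries each came from 1 adult female of the clone GB or IL, sampled within a day of egg-laying at 75 ± 2 days of age, with the newly laid eggs removed. Females under caloric restriction (CR) received 100000 algal cells per mL each day. Females exposed to the ketone body beta-hydroxybutyrate (BHB) at 2.5 mM, or to nicotinamide mononucleotide (NMN) at 0.1 mM, from which cells make the coenzyme NAD, received 400000 cells per mL and spent 2 h a day in the solution. Control females received 400000 cells per mL and spent the same time in plain medium, as did the CR females. CR, BHB and control had 3 females per clone, and NMN had 2 per clone. GB (isolate GB-EL75-69, a lake population in London) and IL (isolate IL-M1-8, a temporary pond in Jerusalem) were each a single genotype kept by clonal reproduction, so a difference between them is one between these genotypes. The females of a clone descended from 3 stock females, and animals of different treatments could therefore share a lineage. No ID is paired with a gene name, so the defining markers of tissues could not be looked up. In whole bodies, fewer cells of a type and less RNA per cell cannot be told apart.

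An annotation pipeline such as MAKER combines transcript and protein evidence with programs that predict genes from the sequence alone, among them SNAP, AUGUSTUS and GeneMark. An ID beginning with maker names a model for which evidence was passed to the predictor named later in the ID, whereas an ID beginning with snap, augustus or genemark names an unaided prediction that was kept. The falcon part of an ID names a contig, an assembled stretch of genome, in the naming of the FALCON assembler for long reads. Reads on such a model show that the locus is transcribed, without showing what, if anything, it encodes. No function can be given to any of the members.

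Library totals ran between 8503141 and 14353733 counts. The library numbers 17 to 22 belong to the 6 CR libraries alone, so diet and any preparation step that follows those numbers cannot be told apart. With library number in the fit as a linear term, edgeR called 0 members between CR and control. That term runs with diet, so a count of 0 cannot separate diet from a step that follows the numbers. The log2 differences of some members with the term are given at the end. An unadjusted p under 0.05 was found for 17 members. Of all 4965 rows tested, 1 (0.0201%) was called with that term, against 167 (3.36%) without it. Per-library values below are CPM of library sizes scaled by TMM, edgeR's correction for composition, and are called scaled CPM. The TMM factor averaged 1.07 ± 0.0567 in CR and 0.958 ± 0.0305 in control (SD, n = 6 each), and scaling by column totals alone moved the median CR log2 difference of all rows tested up by 0.165.

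Most rows without an accession were silent or nearly so. Of the 1289, 415 (32.2%) had no read in any library and 578 had reads but averaged under 1 CPM, so that 23.0% became members. Among the 13368 KZ rows, 38.04% had no read and 28.9% reached 1 CPM. At the threshold, the lowest members averaged 1.00, 1.01 and 1.02 CPM, and the highest rows left out averaged 0.981, 0.965 and 0.964 CPM. The median member had 3.76 CPM (quartiles 1.86 and 11.8), against 46.7 CPM (quartiles 6.38 and 164.9) for KZ rows. These are levels of reads per row, not per length, since lengths were not used. Reads were found in all 22 libraries for 280 members (94.6%), against 3637 (94.1%) of the KZ rows. The least widely found member had reads in 9 libraries. The fewest reads of any member over all libraries were 262, and the median was 978. All 296 passed the filter on low counts and were tested together with the other rows, 4965 in all. No member ID occurred on more than 1 row, whereas 709 of the KZ rows (18.3%) shared an ID with another row.

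The share of rows that reached the threshold varied with the kind of prediction, given here as a description since the rule used the level. Of 131 MAKER models built from AUGUSTUS, 50 (38.2%) were members, with a median of 7.00 CPM. Of 797 MAKER models built from SNAP, 196 (24.6%) were members, with a median of 3.16 CPM, and they made up 66.2% of all members. GeneMark predictions gave 13 members of 59 rows (22.0%, median 10.0 CPM). Unaided SNAP predictions gave 35 of 227 (15.4%, median 5.64 CPM), and unaided AUGUSTUS predictions gave 2 of 75 (2.67%). MAKER models built from AUGUSTUS thus entered most often and unaided AUGUSTUS predictions least often.

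**Figure D1:**
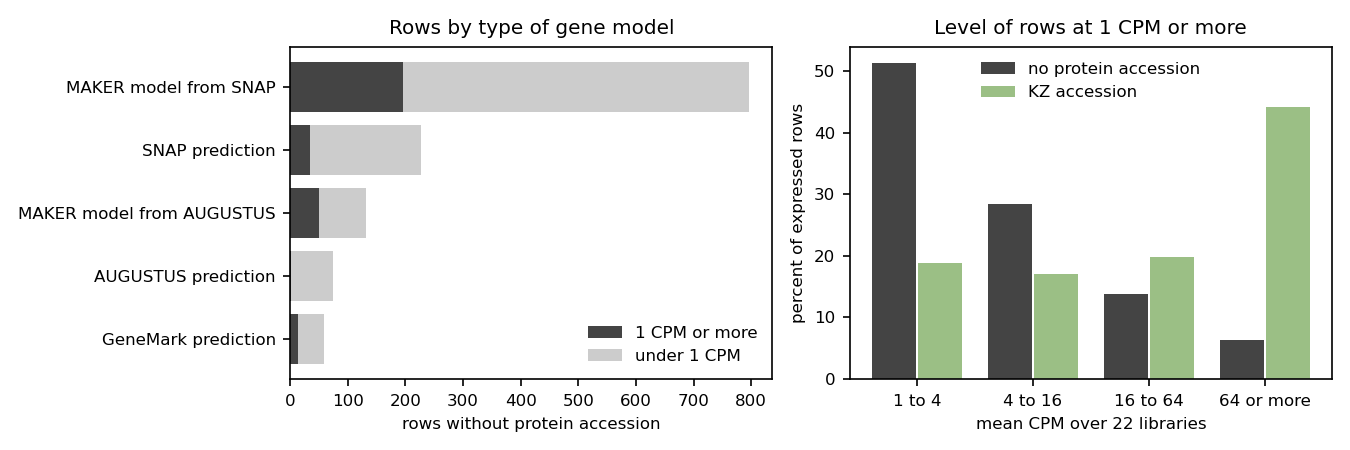
Left, the 1289 rows without a protein accession by type of gene model, split into members (dark) and rows under 1 CPM (light). Right, the percent of expressed rows in 4 ranges of mean CPM for members (dark) and KZ rows (green): 152 of 296 members lay between 1 and 4 CPM, against 728 of 3864 KZ rows.

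A few members held much of the signal. The AUGUSTUS-based MAKER model maker-falcon_000009F-augustus-gene-27.32 averaged 2463 CPM, held 34.0% of all member reads and ranked 69 among all rows of the table. With the next 2 members it held 45.0%. Its scaled CPM ran between 2282 and 3159 in CR (median 2621), between 2215 and 2638 in BHB (median 2396), from 2035 to 2532 in the 4 NMN libraries, and between 2089 and 2661 in control (median 2433). The ranges overlapped in every treatment. Its log2 difference between CR and control was 0.15 ± 0.0749 (SE, adjusted p = 0.309). With column totals the difference was 0.32 (adjusted p = 0.0101, the lowest over 31 settings, which reached 0.97). Between clones it measured 2302 ± 177 in GB and 2614 ± 259 in IL (SD, n = 11 each), a log2 difference of -0.18 ± 0.0554 (adjusted p = 0.0104).

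Together the members took 0.803 ± 0.0546% of a library's counts in CR, 0.687 ± 0.0508% in BHB, 0.720 ± 0.0155% in NMN and 0.685 ± 0.0512% in control (SD, n = 6, 6, 4 and 6). The CR libraries ran between 0.745% and 0.899% and the control libraries between 0.633% and 0.777%, so the groups overlapped. CR minus control was 0.118 percentage points, and 0.0332 points relative to TMM-scaled library sizes. Without the most abundant member the shares were 0.517% in CR, 0.454% in BHB, 0.489% in NMN and 0.455% in control. By clone, the share was 0.704 ± 0.0656% in GB and 0.744 ± 0.0668% in IL (n = 11 each).

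Between the clones GB and IL, 144 of 296 members (48.6%) passed an adjusted p of 0.05 in edgeR's quasi-likelihood test, fitted on all 4965 rows, and 44.3% of all rows did. At an unadjusted p under 0.05 there were 161 members (54.4%), against 50.8% of all rows. Of the 144, 75 were higher and 69 lower in GB, where 22.4% of all rows were higher and 21.9% lower. A difference over 2-fold was seen in 84 members, 48 of them higher in GB, and 22.3% of all rows had one. Over 4-fold there were 43 (14.5%; 23 higher in GB), against 13.5% of all rows. Over 16-fold there were 11 (7 higher in GB), against 6.34% of all rows. In 57 members (19.3%; 32 higher in GB) the 11 GB and 11 IL libraries did not overlap, and 14.6% of all rows did so. The median size of the log2 difference was 0.47 over members and 0.31 over all rows. The shares called were 50.0% for SNAP-based MAKER models, 48.6% for SNAP predictions, 44.0% for AUGUSTUS-based MAKER models and 53.9% for GeneMark predictions, and neither AUGUSTUS prediction was called.

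**Figure D2:**
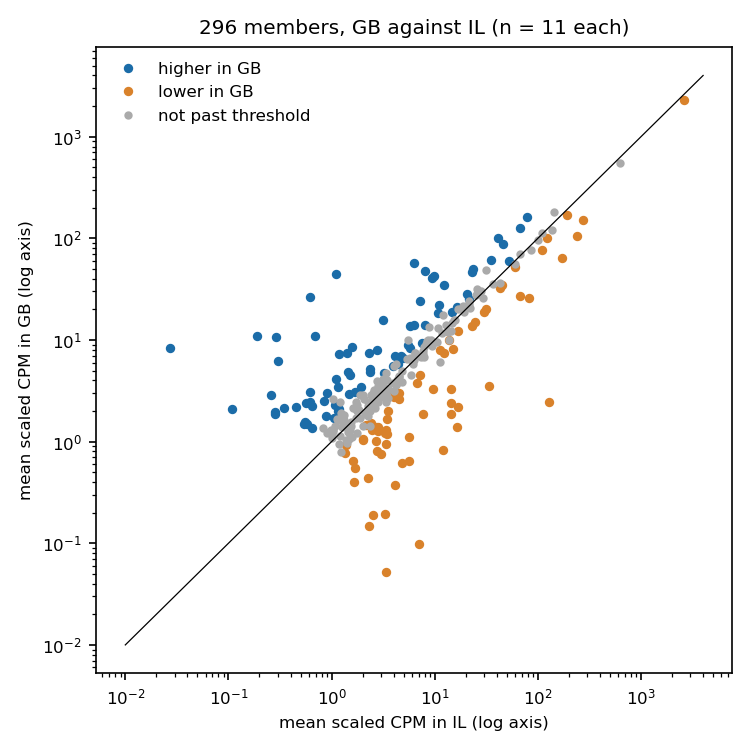
Mean scaled CPM of the 296 members in GB (vertical) against IL (horizontal), n = 11 libraries each, on log axes; colour marks the 75 members called higher and the 69 called lower in GB. The called members spread to both sides of the diagonal, a few of them by over 16-fold.

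The most one-sided members were read almost entirely in a single clone. The SNAP-based model maker-falcon_000079F-snap-gene-2.45 had 1098 reads in GB and 4 in IL. In GB it measured 3.97 scaled CPM at the lowest, 8.58 at the median and 12.03 at the highest, while 9 of its 11 IL libraries had no read and the highest IL value was 0.161. Its log2 difference was 7.66 ± 0.423 (adjusted p = 2.46e-12), a fitted value that depends on the prior count at so few IL reads. The SNAP prediction snap_masked-falcon_000012F-processed-gene-10.65 had 1421 reads in GB and 24 in IL. It ran between 5.55 and 22.7 scaled CPM in GB and from 0 to 0.673 in IL, with no overlap (5.78 ± 0.472, adjusted p = 1.74e-09).

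In the other direction, maker-falcon_000004F-snap-gene-18.23 had 12 reads in GB and 903 in IL. Its GB libraries ran from 0 to 0.4996 scaled CPM and its IL libraries between 4.76 and 9.13, a log2 difference of -6.15 ± 0.444 (adjusted p = 2.01e-10). The more abundant maker-falcon_000036F-snap-gene-9.17 measured 2.47 ± 1.06 in GB (1.39 to 5.38) and 127 ± 36.5 in IL (72.7 to 175.3; SD, n = 11 each). Its log2 difference was -5.70 ± 0.242 (adjusted p = 1.89e-13), and reads were present in every library of both clones. No member was without a read in either clone. A mean under 0.1 scaled CPM was found for 2 members in GB and for 1 in IL. A sequence difference between a clone and the assembly can lower the reads mapped to a locus, and its part in these differences was not tested.

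Set beside KZ rows of similar abundance, the share of members called between clones was the lower one up to 16 CPM and the higher one above. Between 1 and 4 CPM, 67 of 152 members (44.1%) were called against 51.2% of KZ rows, and between 4 and 16 CPM 40 of 84 (47.6%) against 49.7%. Between 16 and 64 CPM it was 25 of 41 (61.0%) against 43.6%, and from 64 CPM upward 12 of 19 (63.2%) against 34.6%. The median size of the log2 difference was 0.51 for members against 0.70 for KZ rows in the lowest range, and was larger for members in the other 3, at 0.47 against 0.44, 0.38 against 0.23 and 0.29 against 0.14. Differences over 4-fold were held by 13.2% of members against 23.7% of KZ rows in the lowest range, by 19.05% against 15.76% between 4 and 16 CPM, by 14.6% against 5.09% between 16 and 64 CPM, and by 5.26% against 0.936% above. Whether members and KZ rows differ in these shares was not tested. Within a range the members were still somewhat lower, with medians of 25.8 CPM against 34.5 between 16 and 64 and of 112 against 191 above. In the lowest range 92.1% of members had reads in all libraries, against 77.1% of KZ rows.

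**Figure D3:**
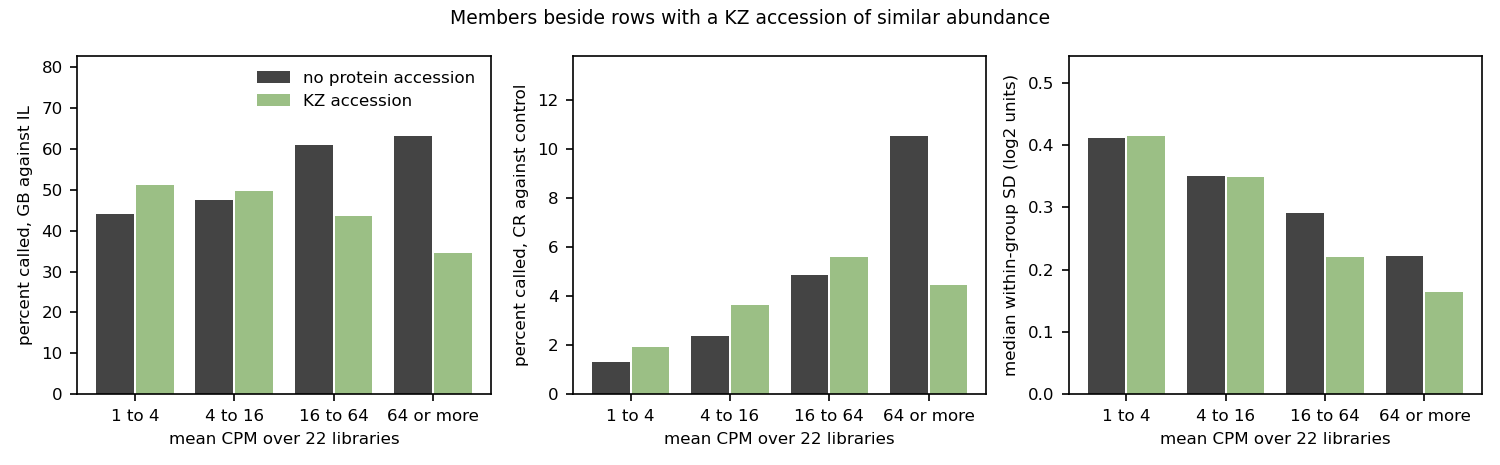
Members beside KZ rows in 4 ranges of mean CPM: percent called between GB and IL, percent called between CR and control, and median within-group SD of log2 scaled CPM. The share called between clones was 63.2% for members against 34.6% for KZ rows from 64 CPM upward, and 44.1% against 51.2% between 1 and 4 CPM.

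CR animals were compared with control to ask which models responded to diet. In CR, 6 members rose and 2 fell, 8 of 296 (2.70%), and 3.36% of all rows tested were called (2.05% higher and 1.31% lower), so the members' share was near the background. At an unadjusted p under 0.05 there were 52 members (17.6%), against 17.6% of all rows. The median log2 difference was 0.03 over members and -0.01 over all rows, and the median size was 0.26 and 0.20. Beside KZ rows of similar abundance the size was 0.33 against 0.33 between 1 and 4 CPM and 0.21 against 0.27 between 4 and 16. It was 0.14 against 0.15 between 16 and 64 CPM and 0.19 against 0.10 above. Of the members, 159 were above 0, and 214 were with column totals. SNAP-based MAKER models gave 3 calls among 196 members, SNAP predictions 3 among 35 and GeneMark predictions 2 among 13. The 50 AUGUSTUS-based models and the 2 AUGUSTUS predictions gave none. Differences between these types were not tested. Each abundance range held 2 of the 8, out of 152, 84, 41 and 19 members. These were 1.32% of members against 1.93% of KZ rows between 1 and 4 CPM, and 2.38% against 3.64% between 4 and 16 CPM. Between 16 and 64 CPM it was 4.88% against 5.61%, and from 64 CPM upward 10.5% against 4.44%. Whether members and KZ rows differ in these shares was not tested.

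Of the 6 that rose, the SNAP-based model maker-falcon_000001F-snap-gene-42.78 had the largest called difference. It measured 4.60, 6.40 and 4.91 scaled CPM in GB under CR and 4.78, 2.77 and 3.16 in IL under CR, against 2.24, 2.03 and 0.974 in GB controls and 1.26, 1.96 and 2.91 in IL controls. In GB every CR library was above every control, while in IL 1 CR library lay below the highest control. Its log2 difference was 1.19 ± 0.257 (adjusted p = 0.0119).

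The SNAP prediction snap_masked-falcon_000015F-processed-gene-8.41 measured 3.83, 3.16 and 3.95 in GB under CR and 3.33, 3.20 and 3.51 in IL under CR, against 1.42, 2.43 and 1.42 in GB controls and 2.52, 1.19 and 1.33 in IL controls. Every CR library was above every control, and also above every BHB and NMN library, whose highest value was 2.64. Its log2 difference was 1.02 ± 0.233 (adjusted p = 0.0168).

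The next were a pair with adjacent numbers on contig falcon_000011F. The SNAP prediction snap_masked-falcon_000011F-processed-gene-2.131 averaged 50.5 ± 9.28 scaled CPM in CR (39.7 to 63.5) and 29.2 ± 7.11 in control (22.7 to 41.8; SD, n = 6 each). CR was above control in every pair of libraries within a clone, and the pooled groups overlapped at 1 IL control. The log2 difference was 0.80 ± 0.114 (adjusted p = 0.000996), the smallest adjusted p of any member in CR. It was 0.85 ± 0.172 in GB and 0.74 ± 0.171 in IL when fitted by clone. The prediction numbered next to it averaged 17.5 ± 3.37 in CR (13.4 to 21.6) and 10.1 ± 1.06 in control (8.77 to 11.5), with no overlap (0.78 ± 0.143, adjusted p = 0.00361). Whether the pair are parts of 1 transcript cannot be told from the counts.

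The most abundant member to rise, maker-falcon_000047F-snap-gene-4.77 (592 CPM over all libraries, the next after the AUGUSTUS-based model), averaged 765 ± 109 in CR (623.8 to 933.5) and 532 ± 114 in control (433.3 to 687.0), with overlap. Its log2 difference of 0.52 ± 0.140 (adjusted p = 0.0445) lost its call without any 1 of 16 of the 22 libraries, with adjusted p up to 0.117. The remaining riser, a SNAP-based model on contig falcon_000018F, averaged 6.94 ± 1.62 in CR and 4.10 ± 1.33 in control (0.77 ± 0.199, adjusted p = 0.0353) and lost its call without any 1 of 7 libraries.

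Both members that fell were GeneMark predictions. For genemark-falcon_000004F-processed-gene-32.11, GB under CR measured 3.69, 2.48 and 0.877 scaled CPM, against 70.5, 109.8 and 14.39 in GB controls. IL under CR measured 2.56, 0.520 and 1.14, against 6.99, 6.87 and 30.9 in IL controls. All 6 CR libraries lay below all 6 controls in spite of the wide spread of the controls, whose mean of 39.9 was 25.9 without GB control replicate 2. The BHB libraries ran between 6.33 and 52.5 and the NMN libraries between 4.50 and 89.9. The log2 difference between CR and control was -4.05 ± 0.635 (adjusted p = 0.0018), and by clone -4.77 ± 0.821 in GB (adjusted p = 0.00985) and -3.39 ± 0.807 in IL (adjusted p = 0.0513).

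The other, genemark-falcon_000015F-processed-gene-19.20, separated the clones more than the diets. In GB it measured 59.7, 50.6 and 45.1 under CR against 61.9, 67.6 and 70.4 in control, and in IL 163.6, 117.3 and 147.4 under CR against 197.5, 218.6 and 195.4 in control. CR lay below control within each clone, and every GB library lay below every IL library. The log2 difference was -0.44 ± 0.0988 between CR and control (adjusted p = 0.0155), which did not pass with column totals (-0.28, adjusted p = 0.129; 0.00138 to 0.518 over 31 settings, of which 28 passed). Between GB and IL it was -1.41 ± 0.0743 (adjusted p = 1.13e-12).

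**Figure D4:**
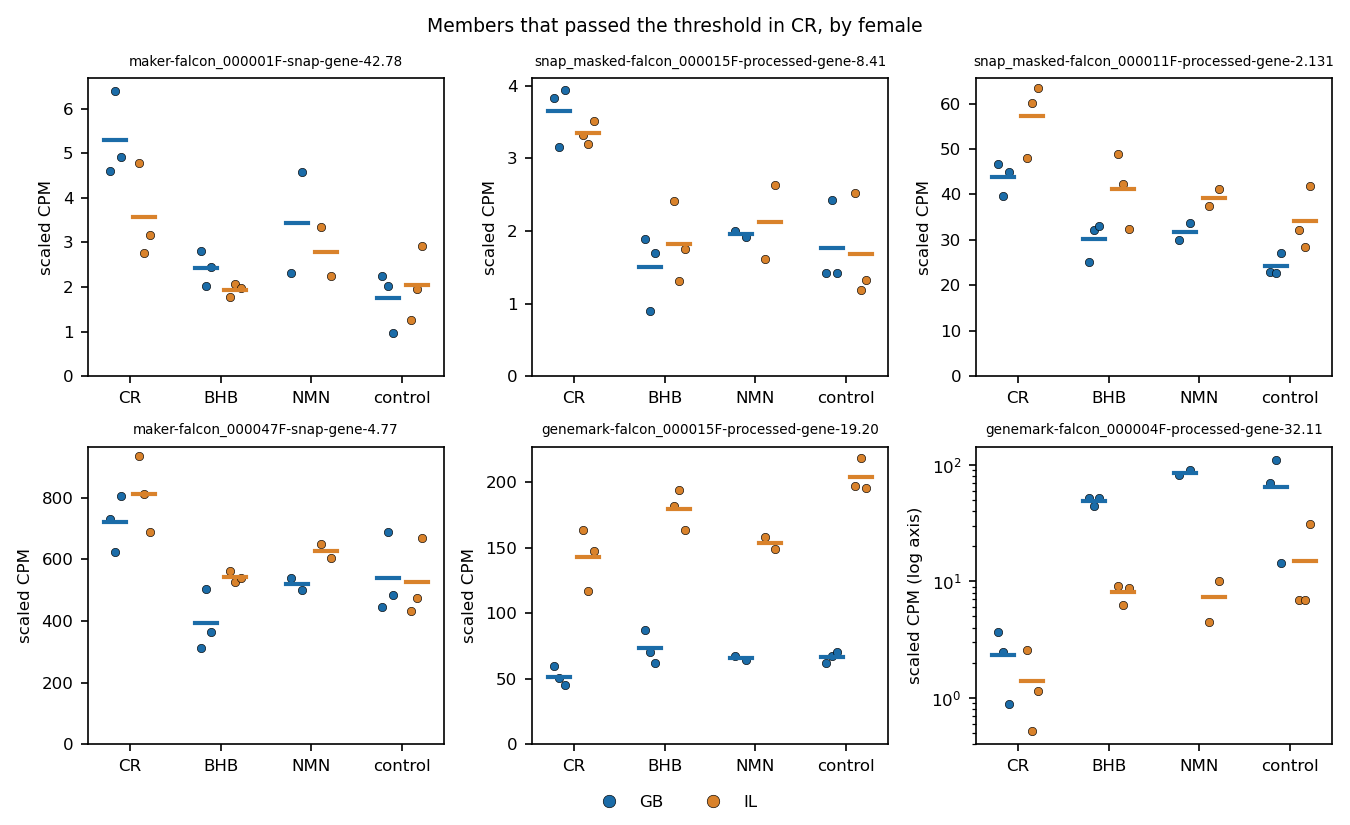
Scaled CPM by female for 6 of the 8 members called between CR and control, in CR, BHB, NMN and control; points are libraries coloured by clone and lines are clone means, and the axis is logarithmic for genemark-falcon_000004F-processed-gene-32.11 alone. That prediction ran from 0.520 to 3.69 in CR, against 6.87 to 109.8 in control.

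BHB and NMN were set against control to ask whether either compound changed expression on full food. For BHB, edgeR called 0 of 296 members (smallest adjusted p = 0.999) and 0% of all rows, and DESeq2 called 0. At an unadjusted p under 0.05 there were 12 members (4.05%), against 3.04% of all rows. For NMN, edgeR called 0 members (smallest adjusted p = 0.937) and 0% of all rows. DESeq2 called 0 members and 4 of all rows (0.0806%). At an unadjusted p under 0.05 there were 9 (3.04%), against 5.16% of all rows. The median size of the log2 difference was 0.18 over members and 0.12 over all rows for BHB, and 0.20 and 0.15 for NMN. Beside KZ rows of similar abundance, BHB gave 0.24 against 0.23 between 1 and 4 CPM and 0.16 against 0.16 between 4 and 16. It gave 0.093 against 0.089 between 16 and 64 CPM and 0.078 against 0.059 above. In the same order of ranges, NMN gave 0.23 against 0.26, 0.19 against 0.18, 0.136 against 0.115 and 0.11 against 0.086. These differences were not tested.

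In both comparisons, which share their controls, the smallest p in the downward direction belonged to 1 model. The SNAP-based model maker-falcon_000021F-snap-gene-15.67 ran between 0.851 and 2.18 scaled CPM in BHB (median 1.76), between 1.58 and 2.00 in NMN, and between 2.03 and 3.78 in control (median 2.92). The log2 difference was -0.77 ± 0.205 for BHB (adjusted p = 0.999) and -0.72 ± 0.232 for NMN (adjusted p = 0.937). In the upward direction, snap_masked-falcon_000011F-processed-gene-2.131 averaged 35.7 ± 8.48 in BHB and 29.2 ± 7.11 in control (0.29 ± 0.113, adjusted p = 0.999). For NMN the smallest upward p belonged to maker-falcon_000001F-snap-gene-42.78, with 3.12 ± 1.10 in NMN (n = 4) and 1.90 ± 0.696 in control (n = 6; 0.69 ± 0.284, adjusted p = 0.937). None of these passed the threshold.

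Whether a treatment acted differently in the clones was tested as an interaction. No member passed for CR, BHB or NMN in edgeR (0 of 296 each) or in DESeq2 (0 each), and 19, 16 and 7 members had an unadjusted p under 0.05 (6.42%, 5.41% and 2.36%), against 8.28%, 7.59% and 3.1% of all rows. The smallest adjusted p was 0.312 for CR, 0.613 for BHB and 1.00 for NMN. For CR it belonged to maker-falcon_000066F-snap-gene-3.144, which measured 0.487, 0.769 and 0.351 in GB under CR against 2.02, 5.11 and 1.499 in GB controls, and 1.88, 1.99 and 1.76 in IL under CR against 2.10, 0.911 and 1.16 in IL controls. The clones' log2 differences differed by -2.83 ± 0.793. In the other direction, maker-falcon_000016F-augustus-gene-10.89 had an interaction of 1.99 ± 0.697 for CR (adjusted p = 0.477). For BHB, maker-falcon_000071F-snap-gene-0.90 measured 0.577, 0.677 and 0.958 in GB under BHB against 3.96, 7.54 and 0.974 in GB controls, and 3.13, 2.18 and 4.72 in IL under BHB against 0.926, 1.47 and 3.91 in IL controls (-3.17 ± 0.984, adjusted p = 0.613). In the other direction maker-falcon_000000F-snap-gene-4.74 had an interaction of 0.85 ± 0.299 (adjusted p = 0.613). For NMN, snap_masked-falcon_000002F-processed-gene-11.123 had an interaction of -4.47 ± 1.67 (adjusted p = 1.00), with 1 GB control at 20.1 scaled CPM and the other GB controls at 1.70 and 0.375. Upward, maker-falcon_000000F-augustus-gene-39.32 had 2.35 ± 0.926 (adjusted p = 1.00).

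The spread within groups of the same clone and treatment was described in the same ranges. The median within-group SD of log2 scaled CPM (0.5 added) was 0.411 for members against 0.415 for KZ rows between 1 and 4 CPM, 0.350 against 0.349 between 4 and 16, 0.291 against 0.220 between 16 and 64, and 0.223 against 0.165 above. An SD over 1 was found for 9 members (3.04%) and for 199 KZ rows (5.15%).

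The most variable members lay close together in the numbering of contig falcon_000036F. The SNAP prediction snap_masked-falcon_000036F-processed-gene-5.118 had an SD of 1.83 and the SNAP-based model maker-falcon_000036F-snap-gene-5.30 an SD of 1.66, and the third most abundant member, maker-falcon_000036F-snap-gene-5.32 (208 CPM), has a number in the same series. In the 3 GB controls, the prediction measured 87.3, 78.7 and 0.825 scaled CPM and the abundant model 162.1, 283.2 and 73.8, while the variable model measured 1.57, 0.162 and 21.2. In the 3 IL controls, the prediction measured 6.48, 2.59 and 73.2 and the abundant model 245.8, 100.8 and 552.0, while the variable model measured 5.05, 15.2 and 0.333. In both sets of controls the animal lowest in the prediction was lowest in the abundant model and highest in the variable one. With group means subtracted, r over the 22 libraries was 0.887 between the abundant model and the prediction, -0.861 between the abundant and the variable model, and -0.860 between the prediction and the variable model. These libraries share their scaling and the members were picked for their spread, so the values are a description. The abundant model was lower in GB, at 151.6 ± 76.3 against 271.3 ± 173.3 in IL (log2 difference -0.85 ± 0.311, adjusted p = 0.0322), and lost that call without any 1 of 8 libraries.

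**Figure D5:**
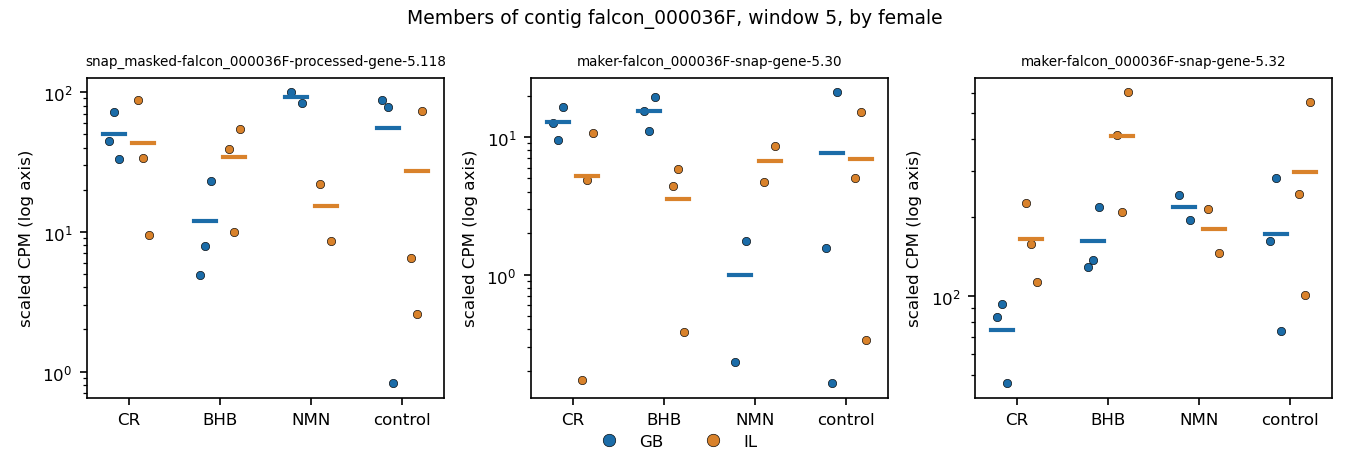
Scaled CPM (log axis) by female of the 3 members on contig falcon_000036F in CR, BHB, NMN and control; points are libraries coloured by clone and lines are clone means. In GB control replicate 3 the variable model had 21.2, where the prediction had 0.825 and the abundant model 73.8.

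The members were spread over 63 of the 196 contigs that hold any row without an accession. Contig falcon_000000F held the most (22), of which 9 were called between clones, and falcon_000001F and falcon_000011F held 17 each, with 9 and 10 called. Among contigs with at least 8 members the count called ran from 1 of 8 on falcon_000021F and 2 of 11 on falcon_000005F to 12 of 14 on falcon_000028F, where 48.6% of all members were called. These contigs were picked for their counts and were not tested. Members whose IDs share a contig and a leading number were taken as neighbours, which gave 52 sets of at least 2, holding 114 members and 72 pairs. Both members of a pair were called between clones in 19 of the 72 pairs, and 8 of these went in the same direction. With 48.6% of all members called, such pairs also occur among members that are not neighbours. The count was not compared with that of all pairs. The median within-group r of neighbours over 22 libraries was 0.0272, against 0.0256 for all pairs of members. An r over 0.7 was found in 2 of the 72 pairs (2.78%) and in 0.834% of all pairs. The higher of the 2, at 0.887, belongs to the members of falcon_000036F described above for their spread. Neighbours also had r of -0.861 and -0.860 on that contig and of -0.770 on falcon_000008F. The share of all pairs under -0.7 was not taken.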

How the data were processed

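For 22 whole-body libraries (RNeasy extraction, NEBNext Ultra II directional kit), the authors deposited raw sense-strand counts of each gene model, per the labels. STAR, Trim Galore 0.4.5, FastQC and DESeq2 stand in the submitters' processing notes, and the genome build is not given in the sources used here. Title letters gave the groups, with L read as CR by elimination. The age was read from the design text, where a font-specific character was taken as the plus-minus sign.

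Counts of all rows passing filterByExpr (4965) were fitted with edgeR 4.0.16 (TMM, robust quasi-likelihood, clone plus treatment; 8 group means for interactions and within-clone values) in R 4.3.3, with Benjamini-Hochberg adjustment over all of them and a threshold of 0.05. Rows with a repeated ID were kept apart. DESeq2 1.42.0 was an alternative. The fit was tested on simulated data with the same biological spread in every row. It therefore does not show how the fit performs with the differing spread of these rows. The members and lists were chosen with earlier results of these data known. Named members were those with the largest called differences at a mean of at least 2 CPM, up to 2 per direction (1 for interactions), the smallest p where none was called, the 3 most abundant and the 2 most variable; the other members called in CR were added after their values were seen. Each female is 1 replicate, and p-values cover the spread between these females. The closest libraries of a group differed beyond sampling noise, with a chi-square of 43.2 per degree of freedom. No ID (0) matched the RefSeq table supplied, and combined BHB and NMN exposure was not analysed here.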

Additional observations from a re-analysis of the deposited data

Results flagged for a closer look

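Among 96 sets of 4 to 10 values tested for a single sample far from the others, 5 stood out. Chance gives about 1 in 20, so the number is near that of chance. The 5 sets each held both clones of a treatment. The models on falcon_000066F and falcon_000002F were named above for interactions in these same values. The share of counts in member models was 0.743% in IL NMN replicate 3, against 0.710% to 0.715% in the other NMN libraries. For maker-falcon_000021F-snap-gene-15.67, GB BHB replicate 3 had 0.851 scaled CPM, against 1.69 to 2.18 in the other BHB libraries. Model maker-falcon_000066F-snap-gene-3.144 measured 5.11 in GB control replicate 2, against 0.911 to 2.10 in the other controls. Model maker-falcon_000071F-snap-gene-0.90 measured 9.81 in IL CR replicate 1, against 2.19 to 3.06 in the other CR libraries. Prediction snap_masked-falcon_000002F-processed-gene-11.123 measured 20.1 in GB control replicate 1, against 0.375 to 2.41 in the other controls.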

How the results depend on the processing

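The count of 8 members called between CR and control was 17 at an adjusted p of 0.1, 18 in DESeq2 and 19 with column totals. It was 4 with CR and control alone and 0 in edgeR with library number as a linear term (unadjusted p under 0.05 in 17). With that term genemark-falcon_000004F-processed-gene-32.11 had -4.04 ± 0.987, against -4.05 ± 0.635 without, and genemark-falcon_000015F-processed-gene-19.20 had -0.42 ± 0.182, against -0.44 ± 0.0988. For maker-falcon_000001F-snap-gene-42.78 it was 0.82 ± 0.478 against 1.19 ± 0.257, and for snap_masked-falcon_000015F-processed-gene-8.41 1.39 ± 0.434 against 1.02 ± 0.233. Of all rows tested, 3.36% were called in the main fit, 6.87% in DESeq2 and 9.16% with column totals. With CR and control alone 1.91% were called, and with library number 0.0201%. The member count ran between 6 and 13 with each library left out in turn, with 13 without GB control replicate 2. Without that library 4.41% of all rows were called, and the cause was not tested. The share of counts in members differed between CR and control by 0.0332 percentage points on TMM-scaled sizes and 0.0619 without the most abundant member, against 0.118 as given, and between NMN and control by -0.0132 points on TMM-scaled sizes, against 0.0350. The 144 calls between GB and IL ran between 136 and 144 with each library left out. Under the other alternatives that kept the 296 members, they ran from 130 (library number as a linear term) to 161 (adjusted p of 0.1). Of all rows tested, 39.03% were called between clones with library number, against 44.3% in the main fit. Member thresholds of 2 and 0.5 CPM gave 105 and 176 calls. These are out of fewer and more members, so the counts cannot be set beside 144 directly. BHB, NMN and the 3 interactions gave 0 calls among members under every alternative run. Of all rows tested, NMN had 4 called in DESeq2 (0.0806%) and 1 with column totals (0.0201%). Same-numbered animals of a clone in different groups had r between -0.486 and 0.539 over 30 pairs, 8 of them over 0.1. Their median r was 0.0231, against -0.0118 for other pairs of a clone in different groups. The labels do not tie the numbers to the stock females, so a shared lineage could not be checked. With the replicate number as a block, 6 members were called in CR and 139 between clones, against 2.9% and 43.2% of all rows. The column totals and the pseudocount of 1 CPM for the within-group SD were chosen after seeing the data. The compared groups were fitted alone for CR, BHB and NMN, and not for the interactions. Depth limits the lowest members most: reads per member over all libraries had a minimum of 262 and a median of 978. NMN rests on 2 animals per clone and the other treatments on 3.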
